A study of Mus musculus with 9 samples.

Results

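The p53 damage response was followed through 10 genes, namely Trp53, which encodes p53, and 9 of its direct targets, Cdkn1a, Mdm2, Bax, Bbc3, Ccng1, Trp53inp1, Sesn2, Phlda3 and Zmat3. The genes were taken by symbol from a count table of 46095 symbols. All 10 were present, and all 10 passed the filter on low counts that left 14593 genes for testing. The libraries were made from RNA of colon intestinal epithelial cells (IECs) of mice, 4 from Smad4 Vil-KO animals and 5 from Smad4 Vil-KO;Setd2 Vil-KO animals, called double-KO here. Smad4 is the common transducer of TGF-β and BMP signals, and Setd2 is the enzyme that trimethylates lysine 36 of histone H3. In both groups the deletion was driven by Cre under the villin promoter, which is active in intestinal epithelium and not in stroma or immune cells, so by their labels both groups lacked epithelial Smad4 and differed by Setd2. Both groups had also received the alkylating carcinogen azoxymethane (AOM, 10 mg/kg, given at 8 weeks of age) and 1 course of the colitis agent dextran sodium sulphate (DSS, 2% in drinking water for 5 days), with IECs taken at day 10. The comparison is therefore between genotypes after the same treatment, and no untreated colon was analysed here.

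p53 is a transcription factor that is held at a low level by the ubiquitin ligase MDM2 and is stabilised when damage kinases phosphorylate it. It then induces genes that stop the cell cycle, start apoptosis, limit growth signals and, through MDM2 itself, end the response. In the intestinal crypt this programme is known for the death and arrest of epithelial cells after irradiation or genotoxic drugs. Because p53 is regulated mainly as a protein, transcript levels of its targets are read here and not its activity.

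The 9 libraries held between 12487129 and 17120202 counts. Setd2 fell in TMM-normalized counts scaled to library size (CPM) from 112.7 ± 9.44 (SD, n = 4) in Smad4 Vil-KO to 66.0 ± 14.7 (SD, n = 5) in double-KO IECs (adjusted p = 0.00756, by edgeR quasi-likelihood testing and Benjamini-Hochberg adjustment, as is every adjusted p below unless another tool is named). Smad4, deleted in both groups by the labels, stood at 64.1 ± 19.0 and 70.2 ± 34.3 CPM, so counts per gene do not show its loss. The summed CPM of 8 epithelial markers ranged from 12784 to 14736 in Smad4 Vil-KO and from 12146 to 14375 in double-KO libraries, against at most 148.0 for 9 leukocyte markers, 57.7 for 6 fibroblast markers and 10.5 for 4 endothelial markers in any library. Among 5 markers each of goblet cells, colonocytes and stem cells, 1 was called in each list, of which Muc2 and Slc37a2 fell and Olfm4 rose in double-KO IECs. In these lists 1 goblet, 1 colonocyte and 2 stem markers were fitted higher and the others lower. No colonocyte marker was called with a term for Y-linked counts, beside 8.81% of all tested genes. By limma-voom 2 of the 5 were called lower (Car4 and Slc37a2), beside 20% of all tested genes called. In the 6 libraries without Y-linked counts 3 of the 5 were called lower (Aqp8, Car4 and Slc37a2), beside 19.4% of all tested genes called. Of 7 small intestinal enterocyte markers, 5 were tested, and 4 of them (Sis, Enpep, Slc10a2 and Fabp6) rose. The sum of the enterocyte markers ranged from 347.3 to 395.1 CPM in Smad4 Vil-KO and from 466.1 to 1076 CPM in double-KO libraries, with Apoa4 at 0 counts in all 4 Smad4 Vil-KO libraries. All 9 libraries are labelled colon, and since the sum of these small intestinal markers is higher in all 5 double-KO libraries, a difference in the tissue sampled cannot be told apart from genotype in any comparison below. Y-linked transcripts held 4907, 4745 and 3857 counts in double-KO replicates 1, 2 and 5, 28 counts in replicate 3 and at most 1 count in every other library, so clear Y-linked expression was present in 1 genotype only. The part of cell composition and of sex in the values below was not tested beyond the fits given with them, and in bulk RNA fewer cells of a type and less RNA per cell cannot be told apart.

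The promoters are shown first because those of 5 members hold the motif that p53 binds. The p53 consensus decamer, of which a full site holds a pair, was searched on both strands in the 250 bases before each RefSeq start (build GRCm38.p6, equivalent in coordinates to the mm10 build that the submitters name). It was present in 5 of the 11 windows that RefSeq gives for 8 of the 10 genes (45.5%). Among other listed p53 targets it was present in 7 of 39 windows (17.9%), and among all promoters in 2341 of 32851 windows (7.13%). A decamer pair separated by at most 13 bases was found in 1 Cdkn1a window and in 21 of all windows (0.0639%). Trp53inp1 and Zmat3 had no window in the table used. The windows that held a decamer are printed 5′ to 3′ on the gene's own strand, with the decamer in capitals and without bases that lie in a GENCODE M21 exon or in the gene's own RefSeq span. The window of the upstream Cdkn1a start (chr17:29090729-29090975, plus strand) held decamers 73 and 51 bases before that start. The window of the downstream Cdkn1a start (chr17:29093519-29093768) held none. The Mdm2 window (chr10:117710759-117711008, minus strand) held 1 decamer at 186 bases, Bax (chr7:45466904-45467148, minus strand) at 201 bases, Ccng1 (chr11:40755312-40755536, minus strand) at 185 bases and Trp53 itself (chr11:69580256-69580347, plus strand) at 75 bases before the start. Distances count from the start that bounds each uncut window, which for Bax, Ccng1 and Trp53 lies inside the gene span given below.
Cdkn1a: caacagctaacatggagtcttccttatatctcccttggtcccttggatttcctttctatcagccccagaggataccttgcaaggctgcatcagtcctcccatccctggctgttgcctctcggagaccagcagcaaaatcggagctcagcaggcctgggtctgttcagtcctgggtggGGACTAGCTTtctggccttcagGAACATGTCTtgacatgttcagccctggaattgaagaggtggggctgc
Mdm2: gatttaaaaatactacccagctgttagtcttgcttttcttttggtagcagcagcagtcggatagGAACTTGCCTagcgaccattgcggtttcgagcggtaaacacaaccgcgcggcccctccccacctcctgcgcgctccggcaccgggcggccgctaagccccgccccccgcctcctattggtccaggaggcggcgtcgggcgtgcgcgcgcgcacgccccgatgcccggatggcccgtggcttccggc
Bax: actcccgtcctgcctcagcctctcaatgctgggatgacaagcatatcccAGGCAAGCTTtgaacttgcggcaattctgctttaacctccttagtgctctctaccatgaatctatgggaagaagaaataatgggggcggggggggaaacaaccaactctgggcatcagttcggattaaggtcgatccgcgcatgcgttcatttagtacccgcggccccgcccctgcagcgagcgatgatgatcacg
Ccng1: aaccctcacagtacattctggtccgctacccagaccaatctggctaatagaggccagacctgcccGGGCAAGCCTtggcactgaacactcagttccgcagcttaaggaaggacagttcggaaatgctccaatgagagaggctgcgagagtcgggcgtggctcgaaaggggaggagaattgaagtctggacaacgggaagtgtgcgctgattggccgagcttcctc
Trp53: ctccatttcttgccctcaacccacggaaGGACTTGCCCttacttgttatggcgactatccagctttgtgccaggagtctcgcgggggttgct
A match of letters is a description of the window and no measurement of p53 binding, which these libraries do not hold. The known Mdm2 and Bax response elements include sites inside the gene, which these windows do not cover.

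None of the 10 genes passed an adjusted p of 0.05 in either direction, where 13.3% of all 14593 tested genes did (6.76% higher and 6.54% lower in double-KO IECs). At an unadjusted p below 0.05 there were 2 members, Trp53 and Ccng1, against 30.6% of all tested genes. DESeq2 called 0 of the 10, where it called 10.8% of 26868 genes, and limma-voom with library quality weights called 1, Ccng1, where it called 20% of all tested genes. The fitted value was higher in double-KO IECs for 6 members and lower for 4, with a median log2 fold change of 0.05 beside -0.0006 over all tested genes, of which 7291 were fitted higher. The genotypes did not overlap for 1 member, Trp53, where 17.2% of all tested genes showed no overlap. No member had every double-KO library above every Smad4 Vil-KO library, which 8.34% of all tested genes had.

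**Figure D1:**
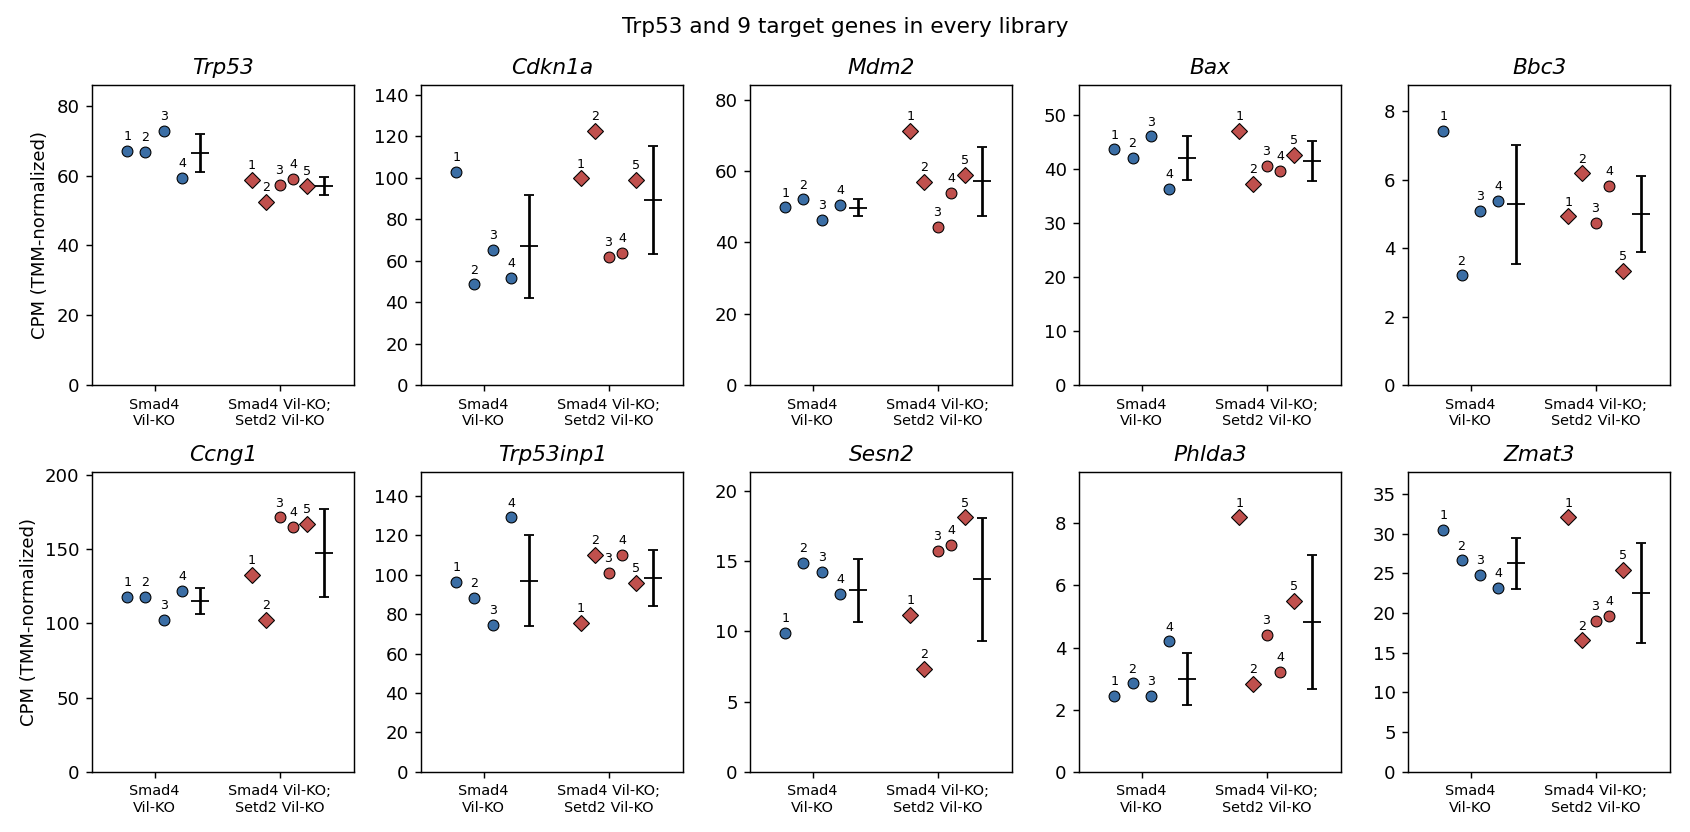
CPM (TMM-normalized, y axis from 0, own scale in each panel) of Trp53 and 9 target genes in 4 Smad4 Vil-KO (blue) and 5 double-KO (red) libraries, with the replicate number beside each point, diamonds for libraries with Y-linked counts, and bars for the mean ± SD. The genotypes overlap in every panel but that of Trp53, where the lowest Smad4 Vil-KO library (59.4 CPM) sits just above the highest double-KO library (59.2 CPM).

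Levels per exon length gave an order of the 10 transcripts that spanned more than a factor of 10. In Smad4 Vil-KO IECs Ccng1 stood highest at 32.7 ± 2.45 CPM per kilobase of exon (SD, n = 4), followed by Bax at 26.7 ± 2.63, Cdkn1a at 18.9 ± 7.0, Trp53 at 16.5 ± 1.36, Trp53inp1 at 15.0 ± 3.57 and Mdm2 at 9.78 ± 0.479. The remaining 4 lay below 4 on this scale, with Sesn2 at 3.72 ± 0.643, Bbc3 at 2.49 ± 0.815, Zmat3 at 2.30 ± 0.276 and Phlda3 at 1.91 ± 0.535 CPM per kilobase. Within 1 SD of each mean, Bax and Cdkn1a, Cdkn1a and Trp53, Trp53 and Trp53inp1, and each neighbouring pair from Sesn2 down to Phlda3 overlapped, whereas Ccng1 and Bax, Trp53inp1 and Mdm2, and Mdm2 and Sesn2 did not. In double-KO IECs the order was Ccng1 (42.0 ± 8.42), Bax (26.3 ± 2.35), Cdkn1a (25.2 ± 7.35), Trp53inp1 (15.2 ± 2.18), Trp53 (14.1 ± 0.656), Mdm2 (11.2 ± 1.91), Sesn2 (3.94 ± 1.26), Phlda3 (3.10 ± 1.38), Bbc3 (2.35 ± 0.522) and Zmat3 (1.97 ± 0.546 CPM per kilobase, SD, n = 5). There, neighbours overlapped within 1 SD from Bax to Cdkn1a, from Trp53inp1 to Trp53 and from Sesn2 down to Zmat3, and the others did not. Trp53 and Trp53inp1 thus exchanged places between the genotypes, as did Phlda3 with Bbc3 and Zmat3, in each case among neighbours that overlapped. The exon lengths come from the GENCODE M21 annotation, which is not stated to be the one the counts were made with.

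**Figure D2:**
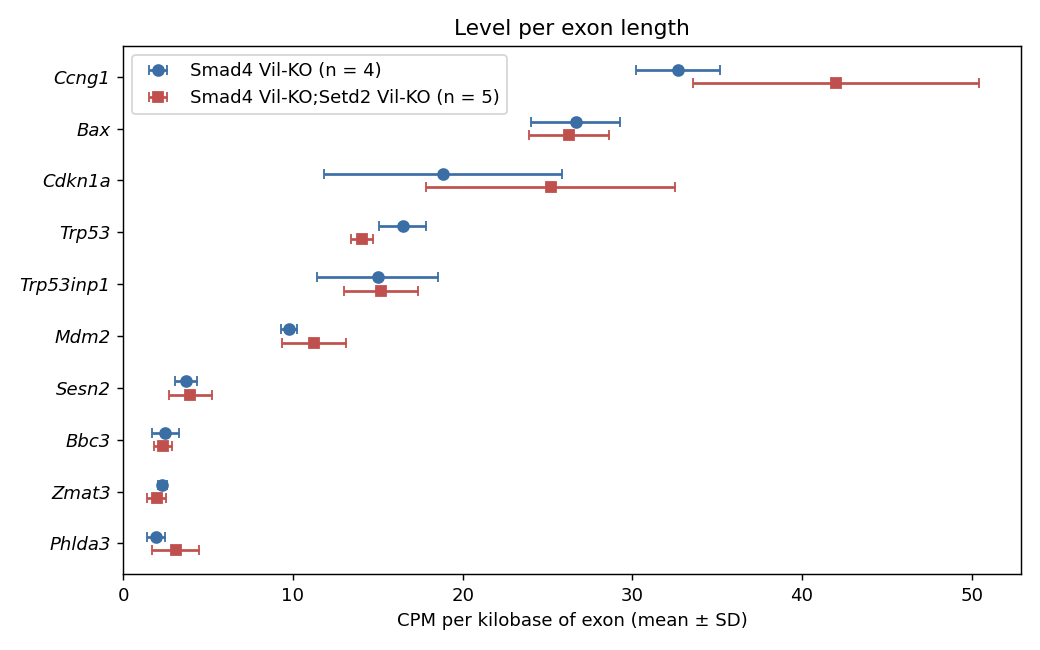
Level per exon length (CPM per kilobase of exon, mean ± SD, x axis from 0) of the 10 genes in Smad4 Vil-KO (blue circles, n = 4) and double-KO (red squares, n = 5) IECs. Ccng1 stands highest in both genotypes (32.7 and 42.0), and Sesn2, Bbc3, Zmat3 and Phlda3 lie below 4 in both.

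Trp53 (chr11:69580348-69591873, plus strand) had 67.0, 66.9, 72.9 and 59.4 CPM in Smad4 Vil-KO and 58.9, 52.6, 57.4, 59.2 and 57.0 CPM in double-KO libraries. Every double-KO library was below every Smad4 Vil-KO library, a pattern that 8.87% of all tested genes showed in this direction, and the gap between the nearest libraries was less than 1 CPM. The means were 66.6 ± 5.51 (SD, n = 4) and 57.0 ± 2.66 CPM (SD, n = 5). The log2 fold change of -0.22 (SE 0.08, 95% interval -0.40 to -0.05) did not pass the test after adjustment (adjusted p = 0.0853). Trp53 had the narrowest spread of the 10 genes among double-KO libraries, with a coefficient of variation of 4.66% where the median tested gene had 17.8%. Of the 50-base runs of Trp53 transcripts, 3.64% also occur in its processed pseudogene Trp53-ps, which held between 1 and 13 counts per library.

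Mdm2 (chr10:117688875-117710758, minus strand) encodes the ligase that ubiquitinates p53, and is itself induced by p53. Its values were 49.8, 52.1, 46.4 and 50.6 CPM in Smad4 Vil-KO and 71.3, 57.0, 44.5, 53.9 and 59.0 CPM in double-KO libraries. The Smad4 Vil-KO libraries lay within 6 CPM of each other, and the double-KO libraries spread on both sides of them, with replicate 3 below and the other 4 above. The log2 fold change was 0.20 (SE 0.12, 95% interval -0.06 to 0.47, adjusted p = 0.281), and without double-KO replicate 1 it was 0.11 (SE 0.10, adjusted p = 0.493). The coefficient of variation was 4.90% in Smad4 Vil-KO and 17% in double-KO libraries, beside a counting error of 3.57%.

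Cdkn1a (chr17:29090979-29100722, plus strand) encodes p21, the cyclin-dependent kinase inhibitor through which p53 arrests cells in G1. It had 102.7, 48.6, 65.2 and 51.5 CPM in Smad4 Vil-KO and 99.7, 122.7, 61.8, 63.9 and 99.2 CPM in double-KO libraries. The groups overlapped across most of their ranges, since Smad4 Vil-KO replicate 1 was the second highest library of the 9. The means of 67.0 ± 24.9 (SD, n = 4) and 89.5 ± 26.1 CPM (SD, n = 5) differed by a log2 fold change of 0.42 (SE 0.26, 95% interval -0.15 to 0.98, adjusted p = 0.295). Leaving out Smad4 Vil-KO replicate 1 raised this value to 0.70 (SE 0.23, adjusted p = 0.0934), and the call did not change. With coefficients of variation of 37.1% and 29.2% beside a counting error of 2.94%, Cdkn1a varied more among libraries of the same genotype than all but 1 of the other members on average over the genotypes. An unnamed transcript on the opposite strand overlaps 7.68% of the Cdkn1a exons, and whether counting used the strand is not given in the sources used here.

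Ccng1 (chr11:40748552-40755309, minus strand) encodes cyclin G1, which recruits protein phosphatase 2A to MDM2. It had 117.8, 117.8, 102.1 and 121.5 CPM in Smad4 Vil-KO and 132.6, 102.4, 171.2, 164.7 and 166.9 CPM in double-KO libraries. Of the double-KO libraries, 4 were above every Smad4 Vil-KO library, and replicate 2 lay at the level of the lowest. The means were 114.8 ± 8.61 (SD, n = 4) and 147.6 ± 29.6 CPM (SD, n = 5). The log2 fold change was 0.36 (SE 0.14, 95% interval 0.05 to 0.68, adjusted p = 0.116). Ccng1 was called in some fits and not in others. Without double-KO replicate 2 the log2 fold change was 0.47 (SE 0.10, adjusted p = 0.0162), and limma-voom on all 9 libraries gave 0.45 (adjusted p = 0.0172).

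Bax (chr7:45461695-45466903, minus strand) encodes a pore-forming member of the BCL-2 family that opens the outer mitochondrial membrane. It had 43.6, 42.1, 46.1 and 36.3 CPM in Smad4 Vil-KO and 47.1, 37.2, 40.6, 39.7 and 42.6 CPM in double-KO libraries. The groups covered nearly the same range, and the log2 fold change of -0.02 (SE 0.10, adjusted p = 0.906) had a 95% interval of -0.24 to 0.19, which spans folds of 0.850 to 1.14. An annotated transcript on the same strand shares 12.2% of the Bax exons, so reads there could belong to either.

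Bbc3 (chr7:16308398-16318334, plus strand) encodes PUMA, a BH3-only protein that frees BAX from its inhibitors and is required for much of the apoptosis p53 causes in the gut. It had 7.43, 3.20, 5.09 and 5.39 CPM in Smad4 Vil-KO and 4.93, 6.18, 4.75, 5.81 and 3.33 CPM in double-KO libraries. The highest and the lowest of the 9 libraries were both Smad4 Vil-KO, and the log2 fold change was -0.08 (SE 0.26, adjusted p = 0.870). Its 95% interval of -0.65 to 0.50 was wide, and at this depth a counting error of 11.6% was part of the spread.

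Phlda3 (chr1:135766085-135769134, plus strand) encodes a small protein that competes with AKT for membrane lipids. It was the scarcest member, with counts from 38 upward, and had 2.43, 2.85, 2.45 and 4.20 CPM in Smad4 Vil-KO and 8.19, 2.84, 4.40, 3.22 and 5.50 CPM in double-KO libraries. Double-KO replicate 1 stood highest, while replicates 2 and 4 lay inside the Smad4 Vil-KO range. It had the largest fitted difference of the 10 genes, a log2 fold change of 0.70 (SE 0.33) whose 95% interval of -0.02 to 1.43 reached from a fold of 0.984 to 2.69 (adjusted p = 0.176). Without double-KO replicate 1 it was 0.43 (SE 0.28, adjusted p = 0.353).

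Trp53inp1 (chr4:11156441-11174379, plus strand) encodes a stress protein that promotes p53 phosphorylation and autophagy. It had 96.2, 88.2, 74.7 and 129.1 CPM in Smad4 Vil-KO and 75.8, 110.1, 101.0, 110.0 and 95.7 CPM in double-KO libraries. The double-KO libraries lay entirely within the Smad4 Vil-KO range, and the log2 fold change was 0.02 (SE 0.16, 95% interval -0.32 to 0.37, adjusted p = 0.940).

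Sesn2 (chr4:132492804-132510456, minus strand) encodes sestrin 2, a leucine sensor that restrains TORC1. Its values of 9.86, 14.9, 14.2 and 12.7 CPM in Smad4 Vil-KO were enclosed by those of 11.2, 7.32, 15.7, 16.2 and 18.1 CPM in double-KO libraries. The log2 fold change was 0.08 (SE 0.24, 95% interval -0.45 to 0.62, adjusted p = 0.847).

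Zmat3 (chr3:32334792-32365665, minus strand) encodes a zinc finger RNA-binding protein that takes part in splicing control. It had 30.5, 26.6, 24.8 and 23.1 CPM in Smad4 Vil-KO and 32.1, 16.6, 19.0, 19.6 and 25.5 CPM in double-KO libraries. The highest and the lowest libraries were both double-KO, with replicates 2, 3 and 4 below every Smad4 Vil-KO library. The log2 fold change was -0.22 (SE 0.18, 95% interval -0.62 to 0.18, adjusted p = 0.442). Leaving out 1 library gave -0.38 without double-KO replicate 1 (SE 0.14, adjusted p = 0.119), -0.12 without double-KO replicate 2 (SE 0.17, adjusted p = 0.678) and -0.14 without Smad4 Vil-KO replicate 1 (SE 0.20, adjusted p = 0.708).

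**Figure D3:**
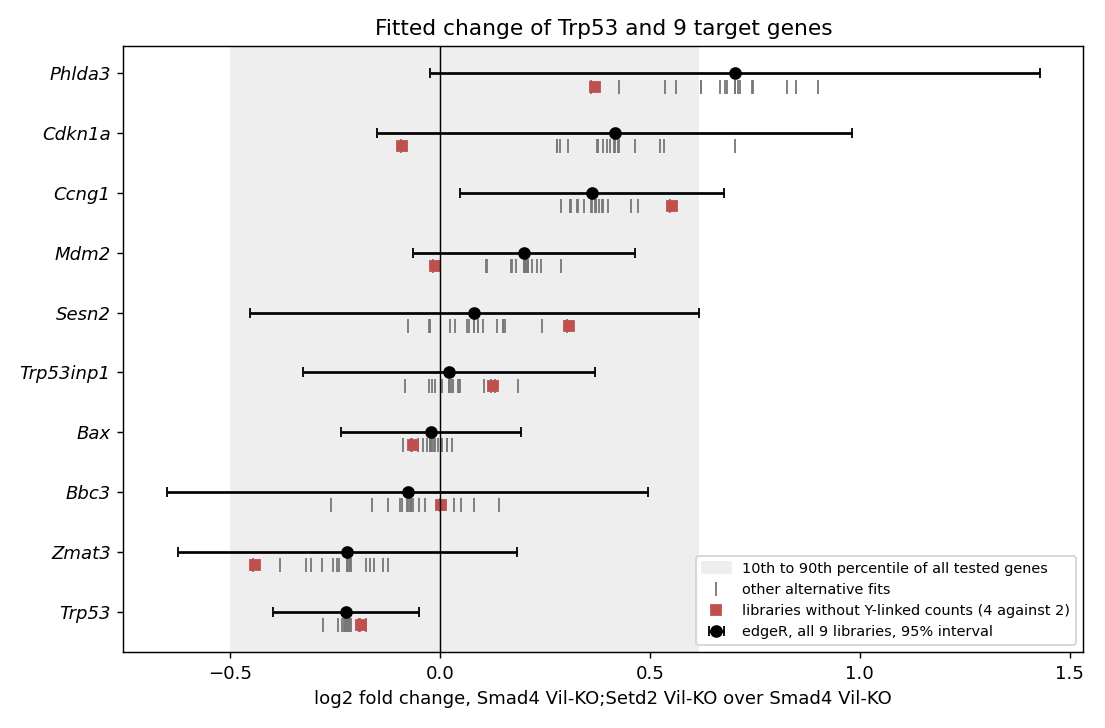
Fitted log2 fold change (x axis, double-KO over Smad4 Vil-KO) of the 10 genes with its 95% interval (black), the values of alternative fits (grey ticks) and the value from the 6 libraries without Y-linked counts (red squares), over the span from the 10th to the 90th percentile of all tested genes (grey band, -0.50 to 0.61). Only the intervals of Trp53 (-0.40 to -0.05) and Ccng1 (0.05 to 0.68) leave out 0, and the red square moves Cdkn1a and Mdm2 to just below 0.

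Set apart by Y-linked counts, the double-KO libraries fell on different sides for several members. Cdkn1a stood at 99.7, 122.7 and 99.2 CPM in the 3 double-KO libraries with Y-linked counts and at 61.8 and 63.9 CPM in the 2 without, and Mdm2 at 71.3, 57.0 and 59.0 CPM against 44.5 and 53.9 CPM. Ccng1 had the reverse arrangement for replicates 1 and 2 but not for replicate 5, at 132.6, 102.4 and 166.9 CPM with and 171.2 and 164.7 CPM without Y-linked counts. Among the 4 Smad4 Vil-KO and 2 double-KO libraries without Y-linked counts, the log2 fold change was -0.09 for Cdkn1a (SE 0.26, adjusted p = 0.835) and -0.01 for Mdm2 (SE 0.10, adjusted p = 0.946). In the same 6 libraries Ccng1 rose by a log2 fold change of 0.55 (SE 0.09, adjusted p = 0.00320) and Zmat3 fell by 0.44 (SE 0.13, adjusted p = 0.0441). Trp53 was at -0.19 (SE 0.10, adjusted p = 0.196) and Phlda3 at 0.37 (SE 0.30, adjusted p = 0.417). A term for Y-linked counts over all 9 libraries rests the genotype difference on the same 6 libraries, since no Smad4 Vil-KO library carries the term, and is no separate check. It called none of the 10, with 0.55 for Ccng1 (adjusted p = 0.0588) and -0.44 for Zmat3 (adjusted p = 0.246). Smad4 transcripts moved along the same line, at 60.0, 113.7 and 98.6 CPM in double-KO replicates 1, 2 and 5 and 38.2 and 40.4 CPM in replicates 3 and 4, and so did Setd2, at 57.7, 86.9 and 76.0 CPM against 55.6 and 53.8 CPM. Their part in the values of Cdkn1a and Mdm2 was not tested.

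Double-KO replicate 1 was the highest of the 9 libraries for 4 members (Mdm2, Bax, Phlda3 and Zmat3), and double-KO replicate 2 was the lowest for 3 (Trp53, Sesn2 and Zmat3). The highest library was a double-KO one for 7 members and the lowest a Smad4 Vil-KO one for 6. Replicate 1 also held the largest sum of 10 proliferation markers, 1567 CPM, against 997.8 to 1215 CPM in the other double-KO and 1013 to 1208 CPM in the Smad4 Vil-KO libraries. Mki67, the classical antigen of cycling cells, did not pass the test (428.6 ± 44.5 CPM, n = 4, and 494.5 ± 88.1 CPM, n = 5, log2 fold change 0.21, adjusted p = 0.307). None of the 10 proliferation markers was called by edgeR, DESeq2 or limma-voom on all 9 libraries, and 0 had an unadjusted p below 0.05 in edgeR. Among the 6 libraries without Y-linked counts 1 was called, the replication licensing gene Mcm5 (log2 fold change 0.34, adjusted p = 0.0335), where 19.4% of all tested genes were called.

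A wider list of 42 further p53 targets showed calls where the 10 members showed none. Of the 41 tested, 7 rose and 4 fell in double-KO IECs, or 26.8% beside 13.3% of all tested genes, with a median log2 fold change of 0.08. Among the death genes, Perp, a tetraspan membrane protein of desmosomes and of p53-dependent apoptosis, had 253.1, 257.9, 220.6 and 258.2 CPM in Smad4 Vil-KO and 336.9, 347.1, 297.1, 328.4 and 338.4 CPM in double-KO libraries. All 5 double-KO libraries were above all 4 others, and Perp rose by a log2 fold change of 0.41 (SE 0.08, adjusted p = 0.00915). This order was shown by 8.34% of all tested genes, and the reverse, as in Sfn and Rprm below, by 8.87%. Apaf1, the scaffold of the apoptosome, rose from 70.0 ± 7.49 (SD, n = 4) to 109.1 ± 19.8 CPM (SD, n = 5, log2 fold change 0.64, SE 0.13, adjusted p = 0.0122). Trp53i11 fell (log2 fold change -0.30, adjusted p = 0.0461). Pidd1 at 0.54 (adjusted p = 0.121), Fas, the death receptor, at 0.47 (adjusted p = 0.154), Eda2r at 0.60 (adjusted p = 0.207) and Pmaip1, which encodes NOXA, at 0.29 (adjusted p = 0.344) did not pass.

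Arrest genes of the wider list moved in both directions. Sfn, which encodes 14-3-3σ and holds CDK1 in the cytoplasm, had 144.8, 165.0, 183.0 and 127.1 CPM in Smad4 Vil-KO and 109.1, 91.4, 111.2, 103.5 and 115.1 CPM in double-KO libraries. Its groups did not overlap, and it fell by 0.55 on the log2 scale (SE 0.11, adjusted p = 0.0106). Plk2 fell by 0.91 (adjusted p = 0.0362), whereas Plk3 (log2 fold change 0.86, adjusted p = 0.0225) and the damage-inducible gene Gadd45a (0.48, adjusted p = 0.0366) rose. Rprm was at -1.45 (adjusted p = 0.0674), with every double-KO below every Smad4 Vil-KO library, and was called, of the 3 tools, by DESeq2 alone (adjusted p = 0.0331). So were Lif (0.66, adjusted p = 0.0377) and Sulf2 (0.58, adjusted p = 0.0363) of the wider list, of which DESeq2 called 9 higher and 5 lower (34.1%). Of the remaining called targets, Sesn1, the sestrin paralog of Sesn2, rose (0.54, adjusted p = 0.0247), as did the receptor tyrosine kinase gene Epha2 (1.33, adjusted p = 0.0196) and Rap2b (0.53, adjusted p = 0.0379), while the xylulose reductase gene Dcxr fell by 0.56 (adjusted p = 0.00879). None of the 5 repair genes (Xpc, Polk, Ddb2, Ercc5 and Pcna) was called by edgeR, with 2 at an unadjusted p below 0.05, Ddb2 (-0.28, adjusted p = 0.109) and Pcna (0.31, adjusted p = 0.0921). DESeq2 called 0 of the 5, and limma-voom called Pcna (adjusted p = 0.0468). With a term for Y-linked counts 2 of the 41 were called higher and 1 lower, or 7.32% beside 8.81% of all tested genes, so the higher share was not seen in that fit. Perp (log2 fold change 0.34, adjusted p = 0.0614), Apaf1 (0.52, adjusted p = 0.0753), Sfn (-0.53, adjusted p = 0.0547) and Dcxr (-0.44, adjusted p = 0.0683) then lost the call with values near those above, as did Trp53i11 (-0.37, adjusted p = 0.0694) and Rap2b (0.56, adjusted p = 0.0935). Plk3 (0.55, adjusted p = 0.162) and Epha2 (0.87, adjusted p = 0.137) lost it with values smaller by over 1.5 times, and Plk2 (-1.56, adjusted p = 0.00192) kept it with a value larger by over 1.5 times. Among the 6 libraries without Y-linked counts 7 targets were called higher and 4 lower, or 26.8% beside 19.4% of all tested genes, and Rap2b was not among them (adjusted p = 0.0607). Leaving out 1 library also ended calls, for Gadd45a, Trp53i11 and Rap2b without any 1 of 7 libraries (adjusted p up to 0.111), for Plk2 and Sesn1 without any 1 of 5 (up to 0.0982 and 0.0752), for Plk3 without Smad4 Vil-KO replicate 1, 2 or 3 (up to 0.0692) and for Epha2 without replicate 1 or 4 of that genotype (up to 0.0579). The count of higher targets was between 2 (without Smad4 Vil-KO replicate 1) and 4 without any 1 of the 4 Smad4 Vil-KO libraries or double-KO replicate 4, fits in which the share called of all tested genes also fell, to between 5.69% and 8.86%.

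Upstream of p53, 32 of 34 listed regulators were tested, and 3 were called (9.38%, beside 13.3% of all tested genes). Cdkn2a (chr4:89274473-89294619, minus strand), whose alternative reading frame encodes p19ARF, the inhibitor that holds MDM2 away from p53, had counts of 0, 1, 2 and 1 in Smad4 Vil-KO and of 16, 16, 31, 27 and 19 in double-KO libraries. It was present in every double-KO library and at or below 2 counts in every other, and against a floor of 3 counts per library it was at least 8-fold higher in double-KO IECs (adjusted p = 0.000993). Its level stayed low, at 1.58 ± 0.536 CPM (SD, n = 5), and counts per gene do not separate p19ARF from the CDK4 inhibitor p16INK4A that the same locus encodes. Where tested, in 18 alternative fits, Cdkn2a was called in all 18, with an adjusted p of at most 0.00542.

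Ppp1r13l, which encodes iASPP, an inhibitor that binds p53, had 10.4, 10.1, 11.0 and 8.16 CPM in Smad4 Vil-KO and 3.90, 4.62, 4.89, 3.61 and 6.58 CPM in double-KO libraries. No library of either genotype reached the range of the other, and it fell by 1.07 on the log2 scale (SE 0.19, adjusted p = 0.00627). Hdac1, a deacetylase that acts on p53 among many proteins, had 62.6, 73.7, 68.9 and 64.0 CPM in Smad4 Vil-KO and 94.5, 87.9, 132.1, 108.7 and 110.9 CPM in double-KO libraries. All double-KO libraries were above all others, with a log2 fold change of 0.67 (SE 0.12, adjusted p = 0.00568). Both calls held in all 19 alternative fits. Mdm4, which binds p53 and blocks its transactivation domain, was lower in every double-KO than in every Smad4 Vil-KO library without passing the test (187.4 ± 12.7 and 163.1 ± 8.58 CPM, log2 fold change -0.20, adjusted p = 0.0946). This order, as in Ppp1r13l, was shown by 8.87% of all tested genes, and the reverse, as in Hdac1, by 8.34%. Atr, a damage kinase gene, was not called by edgeR (0.41, adjusted p = 0.0697) but was by DESeq2 (adjusted p = 0.0414) and limma-voom (adjusted p = 0.0398). The kinase genes Hipk2 (0.18, adjusted p = 0.215), Chek2 (-0.13, adjusted p = 0.369) and Atm (0.16, adjusted p = 0.396) and the phosphatase gene Ppm1d (-0.08, adjusted p = 0.678) were called by none of the 3 tools on all 9 libraries. Among the 6 libraries without Y-linked counts Atr (0.44, adjusted p = 0.0197) and Atm (0.36, adjusted p = 0.0373) were called higher and the acetyltransferase gene Crebbp lower (-0.35, adjusted p = 0.0364). This made 18.8% of the regulators beside 19.4% of all tested genes, and Crebbp is named after its value was seen. Trp63 and Trp73, the paralogs of Trp53, were too scarce to be tested by edgeR, and DESeq2, which tested all 34 regulators, called neither.

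Around Bax and Bbc3, 19 genes of the BCL-2 family, the caspases and their inhibitors were tested, of which 1 rose and 2 fell (15.8%, near the 13.3% of all tested genes, median log2 fold change 0.05). DESeq2 (-0.58, adjusted p = 0.0326) and limma-voom (-0.64, adjusted p = 0.0208) also called Bik lower. Each called 21.1% of the list, beside 10.8% and 20% of all genes they tested. Bmf, a BH3-only gene, fell by 0.98 on the log2 scale (SE 0.19, adjusted p = 0.00849), with 5.76, 8.36, 7.17 and 9.67 CPM in Smad4 Vil-KO against 3.39, 4.19, 4.54, 3.85 and 3.64 CPM in double-KO libraries. Diablo, the mitochondrial antagonist of caspase inhibitors, fell by 0.40 (adjusted p = 0.0309), and Xiap, the caspase inhibitor it antagonises, rose by a log2 fold change of 0.35 (adjusted p = 0.0379). With the term for Y-linked counts Bmf (log2 fold change -0.88, adjusted p = 0.0587) and Diablo (-0.36, adjusted p = 0.138) were no longer called at values near those above, and leaving out any 1 of 7 libraries ended the call of Diablo (up to 0.0885) and any 1 of 6 that of Xiap (up to 0.118).

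Of 19 cyclins, kinases, CDK inhibitors and RB family genes around p21, 1 rose and 2 fell (15.8%, again near 13.3%, median log2 fold change 0.13). In the 6 libraries without Y-linked counts 5 were called higher and 2 lower, or 36.8% beside 19.4% of all tested genes. The D-type cyclin gene Ccnd3 fell by 0.76 (SE 0.13, adjusted p = 0.00509), and Cdkn2c, which encodes the CDK4 and CDK6 inhibitor p18INK4C, fell by 1.30 (SE 0.28, adjusted p = 0.0145), or by 2.08 with the term for Y-linked counts (adjusted p = 0.000758). Rb1 rose by a log2 fold change of 0.46 (adjusted p = 0.0300), a call that was lost without any 1 of 6 libraries (adjusted p up to 0.0986). Of 10 partners of the sestrins in TOR signalling 1 was called (10%, beside 13.3% of all tested genes). This was Tsc2, a subunit of the complex that turns TORC1 off, which fell by 0.34 (adjusted p = 0.0302). Tsc2 was not called without any 1 of 6 libraries (adjusted p up to 0.0985) or with the term for Y-linked counts (adjusted p = 0.154). Its log2 fold change stayed between -0.38 and -0.28 in all 19 alternatives. DESeq2 also called Nprl2 lower (-0.59, adjusted p = 0.0434), or 20% of the list beside 10.8% of all genes it tested. Without Y-linked libraries Nprl3 alone was called (-0.43, adjusted p = 0.0433), or 10% beside 19.4% of all tested genes.

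**Figure D4:**
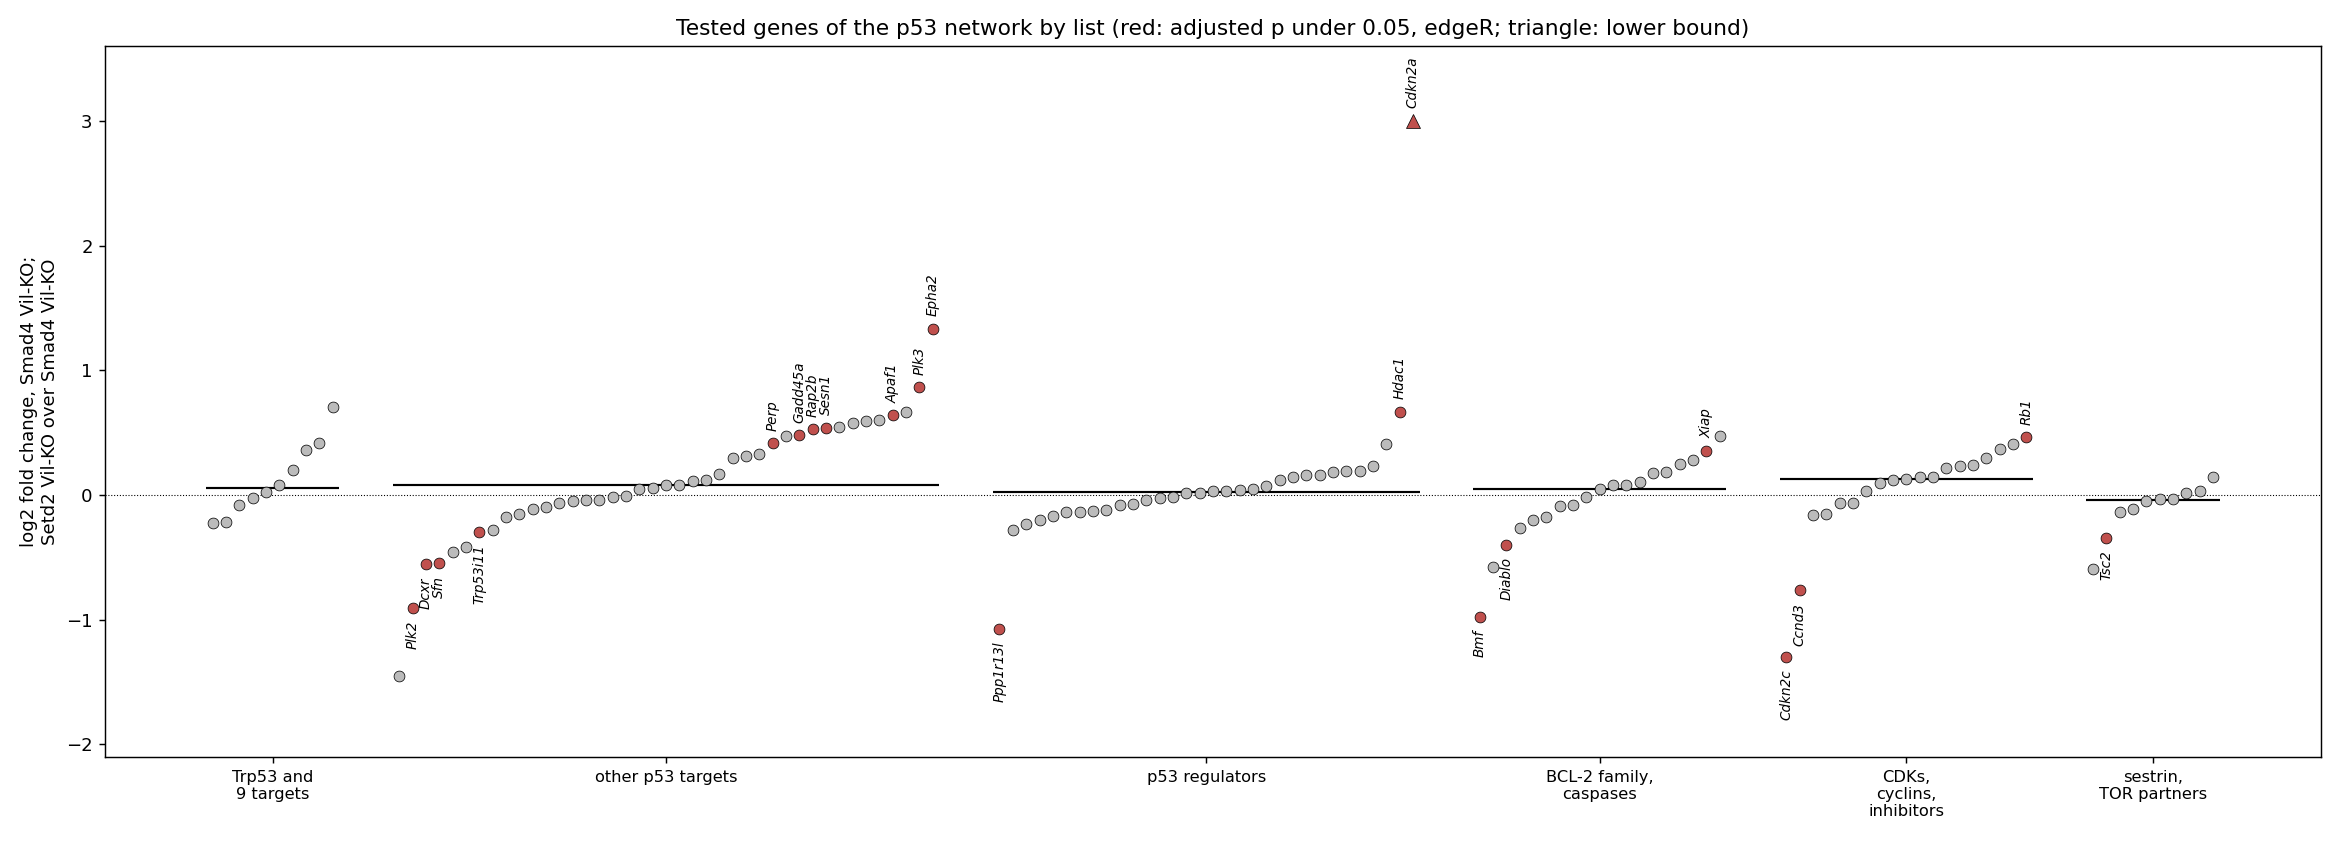
Fitted log2 fold change (y axis, double-KO over Smad4 Vil-KO) of every tested gene of the p53 network, sorted within each list, with called genes in red and named, and the list's median as a bar. No point is red among Trp53 and its 9 targets, while 11 of 41 other targets are, from Plk2 to Epha2, and the Cdkn2a triangle marks the lower bound of 8-fold against the count floor.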

How the data were processed

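Expression was measured by RNA sequencing of colon IECs, and the table holds read counts per gene symbol and library as deposited by the authors. The submitters' processing notes name HISAT2 2.0 and the mm10 build, and the counting program, its strand setting and the annotation are not given in the sources used here. Groups came from the genotype labels. The labels do not state that libraries of a group came from separate mice, so p-values measure the spread between these libraries. The table had no column without a sample, and 27 symbols turned into dates were kept unnamed.

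Counts were analysed in R 4.3.3 with edgeR 4.0.16 (filterByExpr, TMM factors from 0.956 to 1.09, quasi-likelihood F-test, Benjamini-Hochberg adjustment over all 14593 genes, threshold 0.05). CPM values are TMM-normalized, and intervals are at 95%. Alternatives were DESeq2 1.42.0, limma 3.58.1 (voom), RLE or no scaling, a robust fit, other count filters, a replicate block, a term for Y-linked counts (above 1000), the libraries without them, and each library left out. Counting errors come from Poisson counts and cover counting error only. All 10 members are named with every value. Of each further list, genes past the threshold were named, and of the others up to 4 with the smallest p. The rule for the members uses no measured value, but the members and lists were chosen with earlier results of these data known, and the lists are no independent evidence. No pair of libraries was identical.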

Additional observations from a re-analysis of the deposited data

How the results depend on the processing

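All 10 members missed the threshold in most alternatives. Of 190 member values over 19 alternatives, 164 kept direction and call, 4 gained a call and 22 turned direction without a call. Members called higher numbered 1 under limma-voom and in libraries without Y-linked counts, and 0 to 1 with a library left out. Members called lower numbered 1 without Y-linked libraries, and 0 otherwise. With the Y-linked term and without Y-linked libraries, log2 fold changes turned to -0.0929 and -0.0902 for Cdkn1a, -0.0159 and -0.0119 for Mdm2, and 0.0005 and 0.0040 for Bbc3. Bbc3 also turned under limma-voom (0.0330), the replicate block (0.0806) and without Smad4 Vil-KO replicate 1 or double-KO replicate 5 (0.0496). Bax turned under library size alone (0.0169) and without Smad4 Vil-KO replicates 1 (0.0025) or 3 (0.0287) or double-KO replicates 2 (0.0185) or 4 (0.0047). Trp53inp1 turned without Smad4 Vil-KO replicates 2 (-0.0244) or 3 (-0.0820) or double-KO replicates 2 (-0.0181) or 4 (-0.0104). Sesn2 turned under the replicate block (-0.0764) and without Smad4 Vil-KO replicate 1 (-0.0223) or double-KO replicate 5 (-0.0254). With a library left out, the values ranged from -0.0885 to 0.0287 for Bax, -0.2599 to 0.1414 for Bbc3, -0.0820 to 0.1853 for Trp53inp1 and -0.0254 to 0.2443 for Sesn2. The cause was not tested.

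Other targets called higher numbered 2 with the Y-linked term and 2 to 10 with a library left out, and those called lower 2 under library size alone, 2 under the block, 1 with the Y-linked term and 2 to 5 with a library left out. Regulators called higher numbered 1 with at least 10 counts in every library, 4 without Y-linked libraries and 2 to 3 with a library left out, and lower 2 without Y-linked libraries. BCL-2 genes called higher numbered 0 without a filter, 0 under the block, 2 without Y-linked libraries and 0 to 1 with a library left out, and lower 0 with the Y-linked term, 1 without Y-linked libraries and 1 to 2 with a library left out. CDK genes called higher numbered 2 under limma-voom, 5 without Y-linked libraries and 0 to 2 with a library left out. Without Y-linked libraries 36.8% of the CDK genes were called in either direction, beside 19.4% of all tested genes. Over all genes, 1510 were higher by DESeq2, 653 with the Y-linked term and 455 to 1380 with a library left out, and 1523 were lower by limma-voom, 632 with the Y-linked term, 1524 without Y-linked libraries and 392 to 1316 with a library left out, the smallest counts being without Smad4 Vil-KO replicate 3. The share of all tested genes called was 10.8% by DESeq2, 20% by limma-voom, 12.6% under library size alone, 11.1% under the block and 6.97% without a filter. It was 12.9% with at least 10 counts in every library, 8.81% with the Y-linked term and 19.4% without Y-linked libraries. With a library left out it ran from 5.69% to 18.6%, the latter without double-KO replicate 5, where 10 other targets were higher.

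The genotypes share replicate numbers. Deviations of same-numbered libraries from their group means correlated at -0.096, -0.104, 0.02 and 0.088, and those of other pairs at -0.261 to 0.304. Pairing by number was therefore not seen, but so few libraries cannot exclude a weak one. With the replicate number as a block, 0 members were called. Depth limits Phlda3 (counting error 13.1%) and Bbc3 (11.6%) most.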
